A study of Rattus norvegicus with 12 samples.

Results

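The 4 genes Kcnj3, Kcnj5, Kcnj6 and Kcnj9 encode the subunits of the G protein-gated inwardly rectifying potassium (GIRK) channels, and they were followed in the periaqueductal grey of rats by the treatment their sires had received. They were chosen by name, as the whole GIRK family, from 41596 genes. All 4 were found, each in a locus that carries no other gene symbol, and all 4 were tested, as were 24540 genes in all whose mean level reached 0.5 TPM, the deposited unit that scales for depth and transcript length. The level of a gene is the TPM summed over its annotated and assembled transcripts in one library.

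The samples were polyA RNA of dissected brain tissue from male Sprague Dawley rats, 6 labelled morphine-sired and 6 labelled saline-sired. The labels name the treatment of the sire only. They give no genotype other than the strain, no age, no treatment of the offspring, and no litter or sire. P-values therefore treat the 12 animals as independent, and any that share a sire or litter would make them too small. Mapped depth was 4.39 to 6.03 gigabases a library, with a median of 5.15.

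GIRK channels open when an inhibitory receptor, such as the mu opioid or the GABA-B receptor, releases G protein beta-gamma subunits that bind the channel. Potassium then leaves the neuron and its firing is dampened. In the periaqueductal grey, a midbrain region of descending pain control, opioids act in part through this coupling. GIRK1, encoded by Kcnj3, forms channels together with another subunit and does not reach the surface well alone. GIRK2, encoded by Kcnj6, carries a signal for leaving the endoplasmic reticulum and can form channels by itself. GIRK3, encoded by Kcnj9, carries a signal that directs channels to lysosomes. GIRK4, encoded by Kcnj5, is best known as the partner of GIRK1 in the atrium of the heart.

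The stretches before the start of 3 of the genes are shown with CTTTG marked. These bases are a part of the motif of the transcription factor family of Tcf7l2 and Lef1. Tcf7l2 was among the 3 genes most like Kcnj5 between libraries, and Lef1 among the 3 most like Kcnj9. Both came from a search of these same data and are also on the marker list for thalamus and colliculus. Regulation of the GIRK genes by these factors was not tested. The sequences are from RefSeq, build GRCr8, and run 5′ to 3′ on the minus strand, on which all 3 genes lie. Each holds the 250 bases before the annotated start, at chr8:39011097-39011346 for Kcnj5, chr11:47778349-47778598 for Kcnj6 and chr13:87320294-87320543 for Kcnj9. Capitals mark CTTTG.
Kcnj5: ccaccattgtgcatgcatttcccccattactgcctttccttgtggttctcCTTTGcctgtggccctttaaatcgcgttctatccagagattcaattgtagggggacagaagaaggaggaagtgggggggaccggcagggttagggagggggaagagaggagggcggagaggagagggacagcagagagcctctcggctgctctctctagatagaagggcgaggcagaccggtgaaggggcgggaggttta
Kcnj6: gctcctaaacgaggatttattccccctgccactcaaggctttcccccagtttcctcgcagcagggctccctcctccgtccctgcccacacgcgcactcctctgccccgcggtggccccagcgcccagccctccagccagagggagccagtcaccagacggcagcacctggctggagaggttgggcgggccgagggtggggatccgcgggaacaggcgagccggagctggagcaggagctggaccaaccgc
Kcnj9: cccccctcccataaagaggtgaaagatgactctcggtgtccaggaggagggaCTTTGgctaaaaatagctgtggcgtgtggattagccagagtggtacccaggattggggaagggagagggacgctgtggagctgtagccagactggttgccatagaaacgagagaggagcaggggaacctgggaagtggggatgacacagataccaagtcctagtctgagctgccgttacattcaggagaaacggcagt
CTTTG, searched on both strands, stood once in the Kcnj5 window, once in the Kcnj9 window and nowhere in the Kcnj6 window. The next bases are cc for Kcnj5 and gc for Kcnj9. A match to the full motif was not searched for, so the marks do not show binding sites. CTTTG stood in 48.2% of the 33469 RefSeq windows of this length. GGGCGG, the core of the motif of Sp1, stood in 2 places for Kcnj5 and in 1 for Kcnj6, and in 30.5% of all windows. TATAAA stood in none of the 3 and in 12.9% of all windows. The Kcnj6 window held 69.2% G and C with 16 CpG sites, against 57.2% with 8 for Kcnj5 and 54.8% with 6 for Kcnj9. The medians over all windows were 51.2% and 5.

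Kcnj9 gave most GIRK transcript in the tissue and Kcnj5 least. Over the 12 libraries Kcnj9 averaged 53.0 ± 14.7 TPM (SD), Kcnj3 14.9 ± 5.01, Kcnj6 12.6 ± 1.71 and Kcnj5 2.84 ± 0.432. Kcnj9 stood above 85.9% of the genes tested, Kcnj3 above 63.1%, Kcnj6 above 59.9% and Kcnj5 above 34%.

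Kcnj9 was the highest and Kcnj5 the lowest of the family in every library of both groups. Kcnj9 exceeded Kcnj3 by 1.85 ± 0.53 on the log2 scale (SD, 12 of 12 libraries), and Kcnj6 exceeded Kcnj5 by 2.15 ± 0.25 (12 of 12). Both had an adjusted p of 0.000732 in an exact two-sided sign-flip permutation test over libraries, from a raw p of 0.000488, the smallest that 12 libraries allow. The pairs tested are neighbours in the order of mean TPM in these same libraries, so the order was not set beforehand. The size of the Kcnj9 lead over Kcnj3 depended on the measure. It was 0.89 ± 0.37 (SD) by depth of the exon that most transcripts of a gene share. By annotated transcripts alone it was 4.02 ± 2.19 (SD). Kcnj3 and Kcnj6 were not told apart by TPM. Their log2 ratio was 0.19 ± 0.48, with Kcnj3 higher in 8 of 12 libraries (p = 0.2, exact permutation test). By depth of the shared exon, Kcnj3 exceeded Kcnj6 by 0.61 in 12 of 12 libraries (p = 0.000488, exact). By annotated transcripts alone the ratio was -1.89 (p = 0.0132, exact). The Kcnj3 exon has 217 bases and is in 3 of its 5 transcript models. The Kcnj6 exon has 963 bases and is in 2 of 3. The exon depths thus cover a part of each gene's models and do not settle which gene is higher.

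As a share of the summed GIRK TPM, Kcnj9 made up 64.3 ± 6.23% in morphine-sired and 61.8 ± 5.73% in saline-sired rats (SD, n = 6 each). Kcnj3 made up 17.5 ± 6.07% in morphine-sired and 18.5 ± 4.23% in saline-sired rats. Kcnj6 gave 14.8 ± 1.12% in morphine-sired and 16.1 ± 3.62% in saline-sired rats, and Kcnj5 3.40 ± 0.552% in morphine-sired and 3.56 ± 0.658% in saline-sired rats. Each share differed between the groups by less than the larger of its SDs, and the shares are given as a description, without a test.

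No GIRK gene passed the test between the groups. The test was limma on log2(TPM + 1), two-sided, with Benjamini-Hochberg adjustment over all 24540 genes. It called 0 of the 4 members and 0 of all genes (0%). At an unadjusted p under 0.05 it took 0 of the 4 members, against 790 of all genes (3.22%; 1.5% higher and 1.72% lower in morphine-sired rats). The groups overlapped for all 4 members, while they did not for 0.0896% of genes tested. The fold changes below are on the log2(TPM + 1) scale, morphine-sired minus saline-sired, and this scale understates the change of low genes such as Kcnj5. In whole tissue, fewer cells of a type and less RNA per cell cannot be told apart.

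Kcnj3, the GIRK1 gene, had 11.7, 12.2, 21.7, 11.6, 17.0 and 11.9 TPM in morphine-sired rats 1 to 6, against 11.4, 17.6, 11.0, 13.8, 11.7 and 26.8 TPM in saline-sired rats 1 to 6. Most libraries of both groups lay close together, and morphine-sired 3 and saline-sired 6 stood above them. The log2 difference was -0.06 ± 0.22 (SE; 95% interval -0.54 to 0.41; limma adjusted p = 0.9998).

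Kcnj6, the GIRK2 gene, had 15.3, 11.1, 11.2, 12.2, 11.2 and 13.0 TPM in morphine-sired rats, against 15.3, 15, 10.7, 11.8, 11.4 and 12.4 TPM in saline-sired rats. The groups covered nearly the same range, with library 1 of each at its top. The log2 difference was -0.04 ± 0.10 (SE; 95% interval -0.27 to 0.19; limma adjusted p = 0.9998).

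Kcnj9, the GIRK3 gene, had 78.4, 43.5, 45.4, 62.8, 44.7 and 52.7 TPM in morphine-sired rats, against 56.8, 36.0, 43.5, 43.3, 45.9 and 82.8 TPM in saline-sired rats. One library of each group, morphine-sired 1 and saline-sired 6, lay far above most others. The log2 difference was 0.11 ± 0.20 (SE; 95% interval -0.32 to 0.53; limma adjusted p = 0.9998).

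Kcnj5, the GIRK4 gene, had 2.94, 2.03, 2.53, 3.21, 3.03 and 3.25 TPM in morphine-sired rats, against 3.46, 2.32, 2.55, 2.55, 3.13 and 3.05 TPM in saline-sired rats. The means nearly coincided, at 2.83 ± 0.470 TPM in morphine-sired and 2.84 ± 0.435 TPM in saline-sired rats. The log2 difference was -0.01 ± 0.12 (SE; 95% interval -0.26 to 0.24; limma adjusted p = 0.9998).

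**Figure D1:**
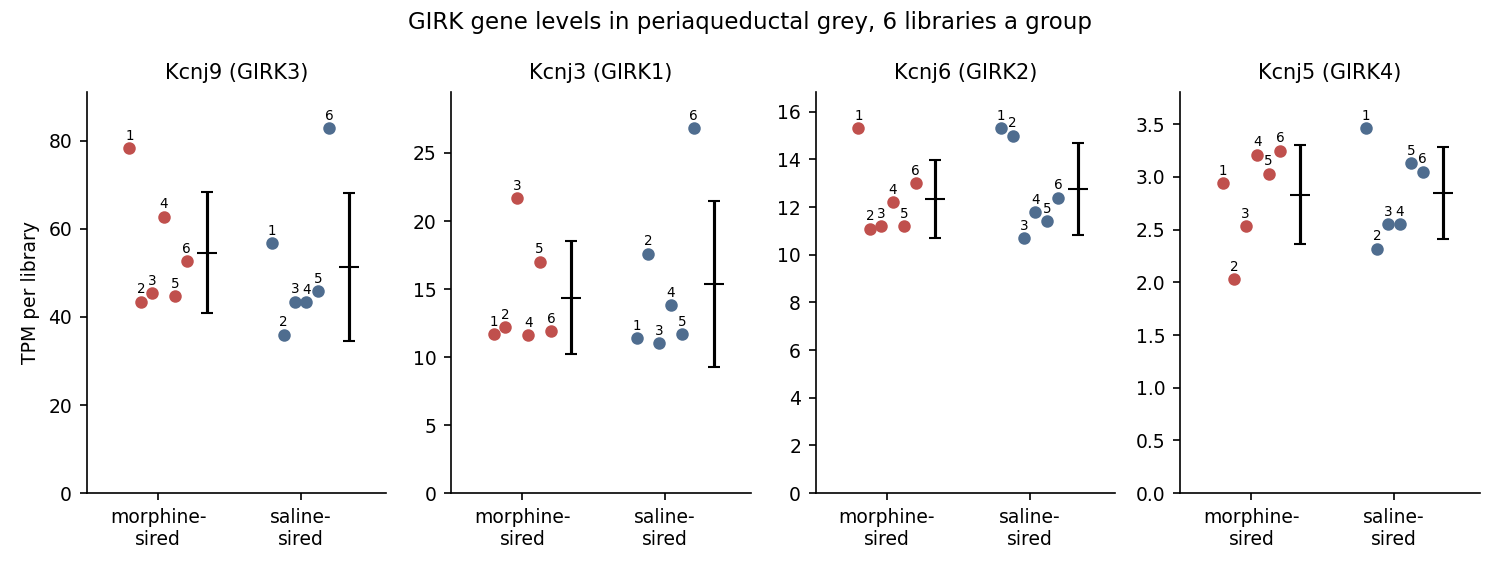
TPM of each GIRK gene (vertical axes from 0, a scale for each gene) in the 6 morphine-sired and 6 saline-sired libraries, numbered by replicate; black marks give the mean and SD. The groups overlap for all 4 genes, and morphine-sired 1 (78.4 TPM) and saline-sired 6 (82.8 TPM) lie at the top for Kcnj9.

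The precision differed between the genes. The 95% interval reached 0.23 to either side for Kcnj6, 0.25 for Kcnj5, 0.42 for Kcnj9 and 0.47 for Kcnj3, against a median of 0.30 over all genes tested. The coefficient of variation over the 12 libraries was 33.7% for Kcnj3 and 27.8% for Kcnj9, against medians of 13.2% and 9.31% among genes of like level. This was 13.6% for Kcnj6 and 15.2% for Kcnj5, where such genes had medians of 14.0% and 28.7%. By TPM, Kcnj3 and Kcnj9 thus varied more between libraries than 90.0% and 91.8% of genes of like level. For Kcnj9 the coefficient was also 25.7% by mapped bases and 28.8% by depth of its shared exon. For Kcnj3 it was 15.4% by mapped bases and 17.7% by shared exon depth, so its wide spread was seen by TPM and not by those measures.

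**Figure D2:**
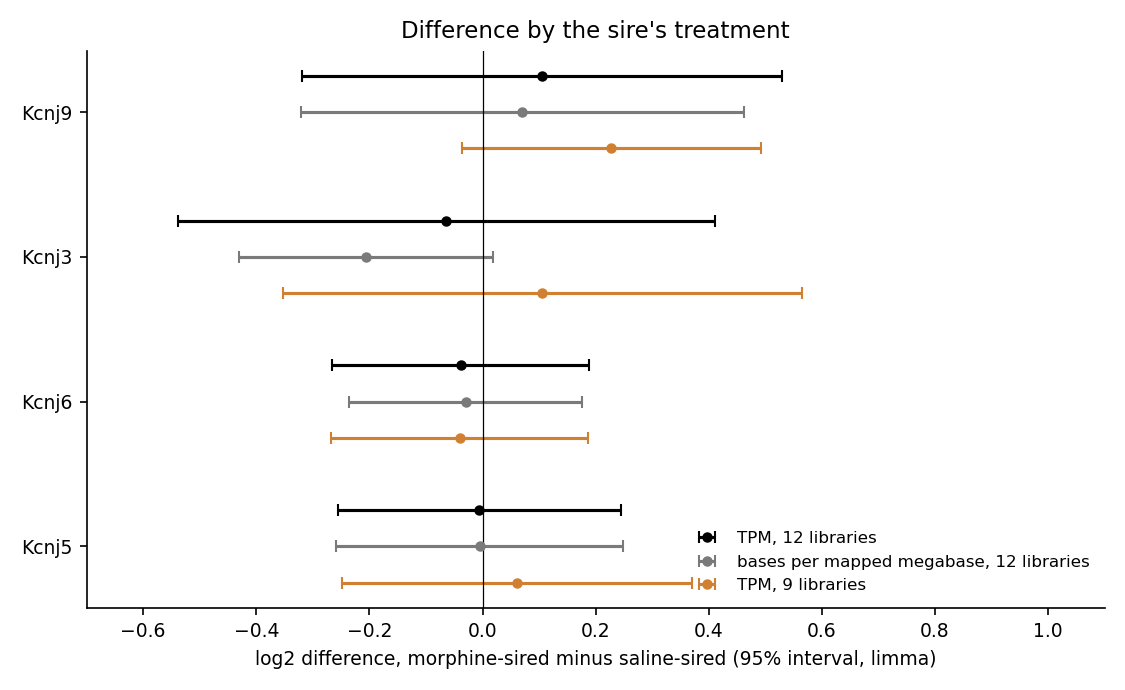
Log2 difference of each GIRK gene, morphine-sired minus saline-sired, with its 95% interval from limma, by TPM, by the share of mapped bases, and by TPM in the 9 libraries left without morphine-sired 1 and saline-sired 1 and 6. Every interval spans 0, and that of Kcnj3 by TPM is wider (-0.54 to 0.41) than by bases (-0.43 to 0.02).

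The spread of Kcnj3 went with how its reads were divided among transcript models. The locus lies on the plus strand of chromosome 3 (41018124 to 41183473, Rnor_6.0) and holds 1 annotated transcript, ENSRNOT00000007335, with 3 exons and 1827 bases, and 4 assembled ones. The longest, MSTRG.15635.2, has 4 exons and 5073 bases. An unnamed minus-strand locus, at 0 to 2.12 TPM, overlaps Kcnj3 by 1334 bases. It covers 23.7% of the length of MSTRG.15635.1, 5.46% of MSTRG.15635.2, 3.88% of MSTRG.15635.3 and none of the annotated transcript. Whether the libraries kept strand is not stated in the sources used here, and reads of both strands may be mixed there. The annotated transcript had 2.63, 2.08, 15.2, 1.71, 15.8 and 0.31 TPM in morphine-sired rats, against 2.91, 3.18, 0.83, 0.12, 2.13 and 23.0 TPM in saline-sired rats. It gave 69.9% of Kcnj3 TPM in morphine-sired 3, 93.3% in morphine-sired 5 and 85.6% in saline-sired 6, and at most 25.6% elsewhere. In those 3 libraries the mean length of a Kcnj3 transcript, weighted by TPM, was 2186, 2006 and 2032 bases, against 3388 to 4053 in the other 9.

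A measure that does not divide by transcript length is the share of all mapped bases that fell on the locus. Kcnj3 took 17.5, 19.9, 20.5, 18.1, 14.8 and 17.9 bases per mapped megabase in morphine-sired rats, against 17.5, 26.0, 19.2, 22.3, 18.7 and 23.2 in saline-sired rats. Morphine-sired 3 was then no longer apart from its group, and morphine-sired 5 was the lowest of all. The ratio of the highest to the lowest library was 1.76 by bases and 2.44 by TPM. The means were 18.1 ± 2.04 in morphine-sired and 21.2 ± 3.25 in saline-sired rats, a log2 difference of -0.21 ± 0.10 (SE; limma adjusted p = 0.9992). This measure was added after the TPM values had been seen. Depth of the shared Kcnj3 exon averaged 9.12 ± 1.57 per mapped gigabase in morphine-sired and 9.82 ± 1.86 in saline-sired rats.

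**Figure D3:**
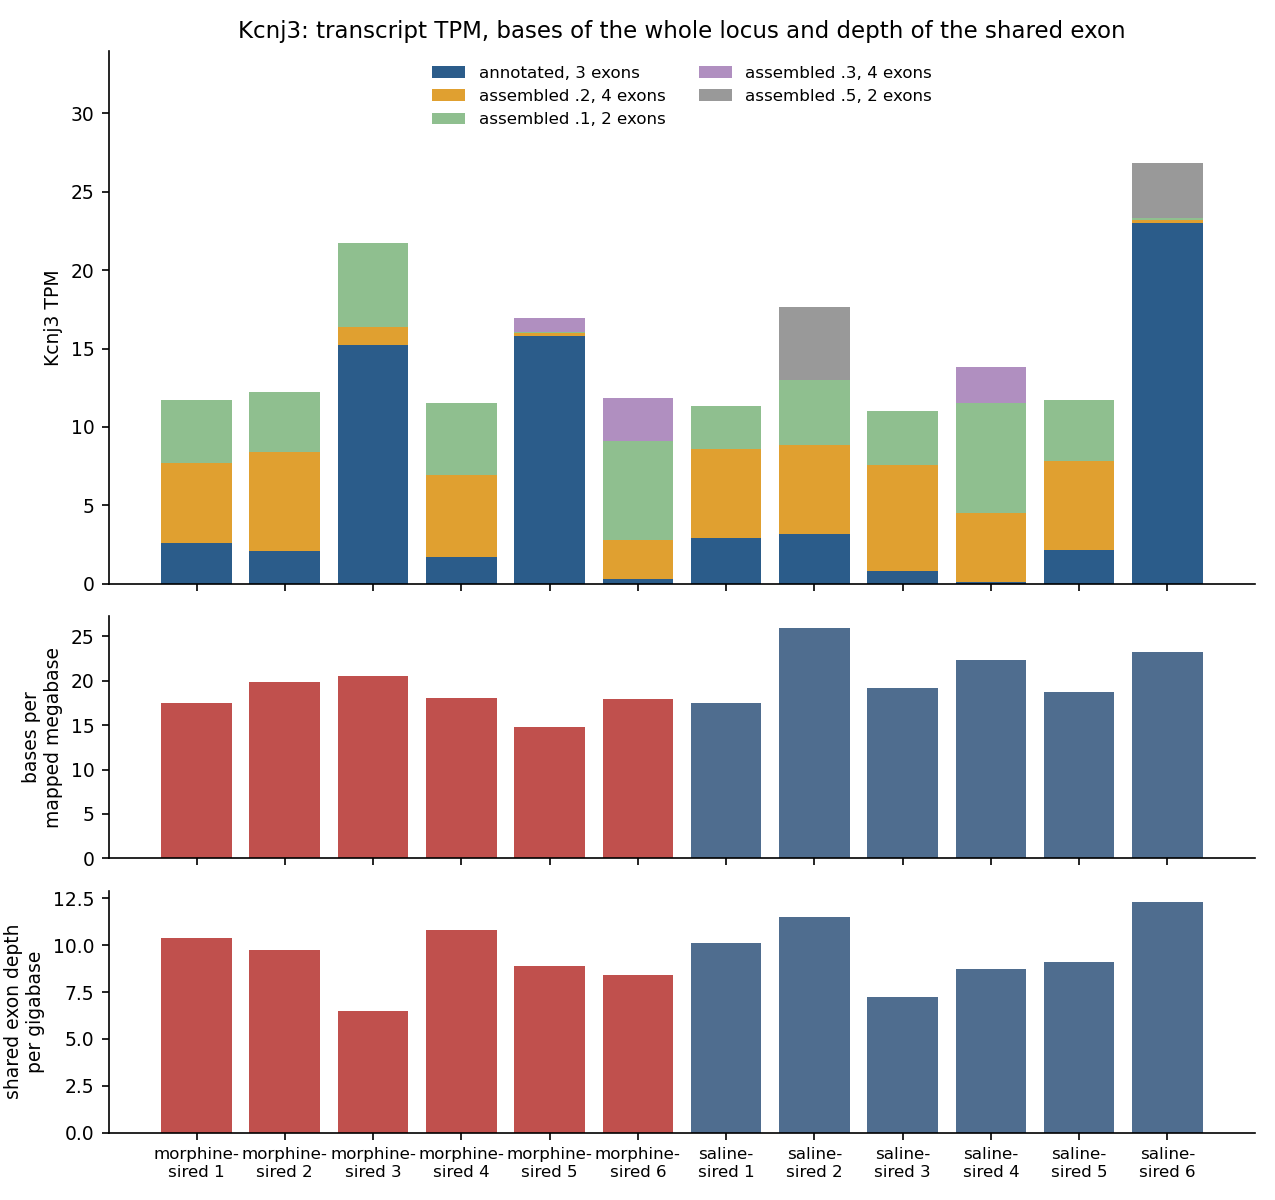
Kcnj3 in each library: TPM stacked by transcript model (top), bases of the whole locus per mapped megabase (middle) and depth of the shared exon per mapped gigabase (bottom), with morphine-sired libraries in red and saline-sired in blue in the lower panels. The annotated transcript gives 15.2 and 15.8 TPM in morphine-sired 3 and 5 and 23.0 in saline-sired 6, and the lower panels do not set those 3 libraries apart together.

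Of the 13 transcripts of the 4 genes, 11 had a mean of at least 0.5 TPM and were tested by limma as single transcripts. None passed (0 of 11), against 1 of 50419 transcripts tested (0.00198%). None had a p under 0.05 either, the smallest being 0.125, against 3.77% of transcripts tested (1.87% higher and 1.91% lower in morphine-sired rats).

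Kcnj6 lies on the minus strand of chromosome 11 (35011020 to 35099383). Its annotated transcript ENSRNOT00000079955 averaged 8.75 ± 1.64 TPM in morphine-sired and 9.15 ± 1.87 TPM in saline-sired rats. The assembled MSTRG.5417.1, which runs farther downstream, averaged 3.61 ± 0.803 TPM in morphine-sired and 3.6 ± 0.580 TPM in saline-sired rats. The remaining model, ENSRNOT00000066940, is listed at 0 in all 12. An unnamed locus of 1 exon on the plus strand, at 6.93 to 14.1 TPM, covers 75.7% of the length of MSTRG.5417.1 and none of ENSRNOT00000079955. The sources used here do not state if the libraries kept strand, and reads of the 2 strands may be mixed there.

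Kcnj9 lies on the minus strand of chromosome 13 (90700985 to 90710287). ENSRNOT00000010113 averaged 39.9 ± 10.8 TPM in morphine-sired and 36.1 ± 13.0 TPM in saline-sired rats. The longer assembled MSTRG.7429.2 averaged 12.4 ± 2.87 TPM in morphine-sired and 12.5 ± 3.59 TPM in saline-sired rats. The neighbouring gene Igsf8, on the plus strand, ends 196 bases from the 3′ end of Kcnj9. Kcnj5 lies on the minus strand of chromosome 8 (33433905 to 33463467) with 1 annotated transcript of 3 exons, and no other locus lies within 20000 bases. Its levels rested on an estimated 157 to 298 reads in morphine-sired and 174 to 243 in saline-sired libraries.

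Between animals, Kcnj9 moved most closely with Rasd1, which encodes a Ras-like protein induced by dexamethasone, Lef1, a transcription factor of Wnt signalling, and Prox1, a homeobox factor. Likeness was Pearson's r of log2(TPM + 1) over the 12 libraries, taken over 10224 named genes of at least 5 TPM, and is a description because these are the highest values of a search. It was 0.98 for Rasd1, 0.97 for Lef1 and 0.97 for Prox1. Lef1 had 28.0, 4.70, 7.55, 13.3, 8.53 and 9.87 TPM in morphine-sired rats, against 14.9, 5.06, 5.83, 6.44, 7.93 and 34.7 TPM in saline-sired rats. The same 2 libraries, morphine-sired 1 and saline-sired 6, were highest for Lef1 and for Kcnj9.

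Kcnj5 was most like Ptger3, a prostaglandin E receptor (r = 0.92), Tcf7l2, a transcription factor marking thalamus and nearby midbrain (0.91), and Cbln2, a synapse organizer (0.91). Tcf7l2 had 91.5, 7.58, 49.5, 109, 105 and 93.0 TPM in morphine-sired rats, against 119, 24.3, 27.3, 59.2, 74.7 and 151 TPM in saline-sired rats. Library 2 was the lowest of its group for Tcf7l2 and for Kcnj5 in both groups. Morphine-sired 2 stood apart in other markers too. The catecholamine neuron genes Th (309 TPM) and Slc6a3 (103) were highest there, while Dbh, Slc6a2 and Nr4a2 of the same list were not. The ependymal genes Ccdc153 (1.54 TPM) and Tmem212 (1.13) were lowest there. The part of tissue make-up in the Kcnj5 levels was not tested. Kcnj6 was most like Lemd3, Pkib and Gng2, each at 0.87, and Gng2 encodes a G protein gamma subunit.

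Kcnj3 was most like Nup160, a nuclear pore gene (0.91), Ss18l2 (0.82) and Dusp4, a phosphatase gene (0.80). By bases per mapped megabase the same r was -0.28 for Nup160, -0.04 for Ss18l2 and 0.88 for Dusp4. For Kcnj6 it was 0.58 for Lemd3, 0.80 for Pkib and 0.61 for Gng2, and for Kcnj5 0.82 for Ptger3, 0.91 for Tcf7l2 and 0.88 for Cbln2. For Kcnj9 it was 0.98 for Rasd1, 0.98 for Lef1 and 0.97 for Prox1.

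**Figure D4:**
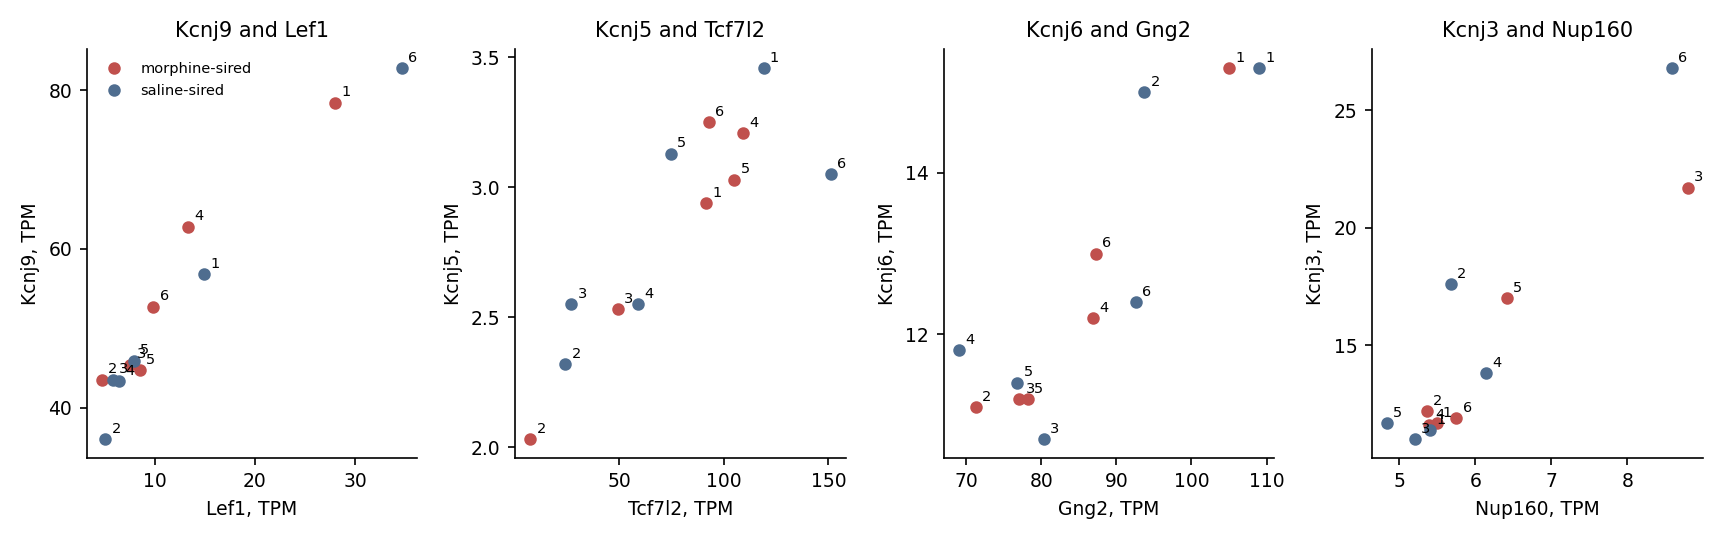
TPM of each GIRK gene (vertical) against TPM of one of the 3 genes most like it (horizontal), 1 point a library, numbered by replicate, morphine-sired in red and saline-sired in blue. Kcnj9 follows Lef1 (r = 0.97) and Kcnj5 follows Tcf7l2 (r = 0.91) in both groups, and for Kcnj3 the points of morphine-sired 3 and saline-sired 6 stand apart.

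Several markers of neighbouring regions differed widely between libraries, within both groups. The 7 thalamus and colliculus markers, all found, summed to 48.7 to 260 TPM in morphine-sired and 62.4 to 428 TPM in saline-sired rats. They did not all move together. Lef1, Prkcd and Rora were highest in saline-sired 6, at 34.7, 218 and 12.6 TPM. Morphine-sired 1 came next, at 28.0, 116 and 11.4 TPM. Kcnj9 was also highest in these libraries. Other markers of the list went otherwise. In morphine-sired 2, Tcf7l2 was at its lowest (7.58 TPM) and Pou4f1 at its highest (12.6). Tal1 stayed within 7.82 to 11 TPM. Pou4f2 had 4.95 and 4.47 TPM in morphine-sired 3 and 5 and at most 0.529 elsewhere. Tph2, which defines serotonergic neurons, had 0.489, 195, 39.1, 3.00, 3.05 and 1.15 TPM in morphine-sired rats, against 0.450, 445, 196, 22.7, 23.1 and 0.672 TPM in saline-sired rats. Chat, which defines cholinergic neurons, was lowest in morphine-sired 1 (1.15 TPM), saline-sired 1 (0.0955) and saline-sired 6 (0.569). In those 3 libraries Kcnj9 had 78.4, 56.8 and 82.8 TPM, which are 3 of its 4 highest values. The marker lists share Lef1 and Prox1 with the genes most like Kcnj9, and the part of region in its levels was not tested.

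Some cerebellar markers set saline-sired 2 apart and others did not. Pcp2, a Purkinje cell gene, had 166 TPM there and at most 1.89 in any other library, and the granule cell genes Gabra6 and Cbln3 had 37.6 and 33.8 TPM there and at most 0.316 and 0.217 elsewhere. Calb1 was also highest there, at 101 TPM. Cbln1, Zic1 and Barhl1 did not set it apart, at 70, 50.2 and 6.77 TPM there. Other libraries reached 155 TPM for Cbln1, 58.6 for Zic1 and 11.3 for Barhl1. All 7 cerebellar markers were found and summed to 109 to 235 TPM in morphine-sired and 120 to 465 TPM in saline-sired rats. Gabra6 was listed at 0 in 7 libraries. In saline-sired 2, Kcnj6 was among its 3 highest values at 15 TPM, and the Kcnj9 share of GIRK TPM was its lowest at 50.8%. Without that library the Kcnj6 log2 difference was 0.01, and the part of cerebellar tissue in these levels was not tested.

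Without morphine-sired 1 and saline-sired 1 and 6, Kcnj9 averaged 49.8 ± 8.07 TPM in morphine-sired (SD, n = 5) and 42.2 ± 4.29 TPM in saline-sired rats (SD, n = 4). The log2 difference was 0.23 (limma adjusted p = 0.933). With the thalamus and colliculus score as a term over all 12 libraries it was 0.06 ± 0.14 (SE), and no gene passed. Kcnj9 had Pearson's r of 0.74 and Spearman's rho of 0.83 with that score, given as a description. The score holds Lef1 and averages markers that did not all move together.

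By TPM, no pair of GIRK genes had an adjusted p under 0.05 for varying together. Of the 6 pairs, Kcnj5 and Kcnj9 had the highest correlation over the 12 libraries, with Pearson's r of 0.57 (permutation p = 0.0553, adjusted over the 6 pairs 0.332) and Spearman's rho of 0.70 (permutation p = 0.0142, adjusted 0.0852). Without morphine-sired 2 and saline-sired 2, the 2 farthest from the median of Kcnj5, r was 0.43. The other 5 pairs had r from -0.15 to 0.35, with adjusted permutation p of at least 0.666. Among them, Kcnj6 and Kcnj9 had r of 0.35 over the 12 libraries and -0.00 without library 1 of each group. Within the groups their r was 0.91 in morphine-sired rats (exact permutation, adjusted p 0.0583) and 0.01 in saline-sired rats (exact permutation, adjusted p 0.982), and the difference between these was not tested. By depth of the shared exon, Kcnj6 and Kcnj9 had r of 0.64 and rho of 0.74 (permutation, adjusted p 0.133 for r and 0.0475 for rho). By bases per mapped megabase the same pair had r of 0.28 (permutation, adjusted p 0.718) and rho of 0.00. Both measures were added after the data had been seen. No other pair or setting gave an adjusted p under 0.05.

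The receptors, G proteins and regulators that act on GIRK channels were likewise not called by limma. Of 28 genes listed for receptors that act on GIRK channels, 27 were tested and 0 passed in either direction. Their median log2 difference was 0.02, against -0.00 over all genes tested. The mu opioid receptor gene Oprm1, the main target of morphine, had 17.9, 5.94, 11.0, 14.0, 10.9 and 14.4 TPM in morphine-sired rats, against 19.8, 9.67, 8.54, 9.35, 9.29 and 18.9 TPM in saline-sired rats. Its groups overlapped, with a log2 difference of -0.01 ± 0.27 (SE; limma adjusted p = 0.9998). Like Kcnj9, Oprm1 was high in library 1 of both groups and in saline-sired 6.

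The GABA-B receptor genes were the most abundant receptors of the list. Gabbr1 averaged 733 ± 73.6 TPM in morphine-sired and 713 ± 88.8 TPM in saline-sired rats, and Gabbr2 125 ± 26.8 TPM in morphine-sired and 125 ± 33.5 TPM in saline-sired rats. Chrm4, a muscarinic receptor gene, had the smallest p of the receptors. It averaged 3.22 ± 0.701 TPM in morphine-sired and 4.29 ± 0.535 TPM in saline-sired rats, a log2 difference of -0.34 ± 0.12 (SE; limma adjusted p = 0.9998), and its groups overlapped. Grm7, a glutamate receptor gene whose locus carries 2 symbols, differed by 0.48 ± 0.28 (SE; limma adjusted p = 0.9998).

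All 20 G protein subunit genes were tested and 0 passed, with a median log2 difference of -0.03. Gnb5, a beta subunit that pairs with RGS proteins, averaged 49.6 ± 2.70 TPM in morphine-sired and 55.4 ± 5.81 TPM in saline-sired rats (-0.15 ± 0.07, SE; limma adjusted p = 0.9998). Gng5 differed by 0.15 ± 0.07, and the abundant Gnb2 and Gnai2 by 0.05 ± 0.06 and 0.07 ± 0.06.

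Of 24 regulators, 19 were found and 17 tested, with 0 passing and a median of 0.01. Snx27, which sorts GIRK channels in endosomes, differed by -0.08 ± 0.06, the scaffold genes Dlg1 and Dlg4 by -0.07 ± 0.05 and 0.07 ± 0.08, and the adhesion gene Ncam1 by 0.02 ± 0.04. Of 13 other genes of inwardly rectifying channels and their partners, 11 were tested, 0 passed and the median was -0.04. Kcnj4, of the strongly rectifying Kir2 channels, differed by -0.37 ± 0.20 and Kcnj8, of ATP-sensitive channels, by -0.18 ± 0.13. The glial channel genes Kcnj10 and Kcnj16 differed by 0.06 ± 0.08 and -0.03 ± 0.16. Across these 4 lists, Chrm4 and Gnb5 had an unadjusted p under 0.05, which is 2 of 75 genes tested (2.67%), against 3.22% of all genes.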

How the data were processed

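PolyA RNA of periaqueductal grey from 12 rats was sequenced after preparation with an NEBNext Ultra kit, per the labels' protocols. The build was Rnor_6.0, the aligner HISAT2 2.2.0 and the assembler StringTie 2.1.2, and Trimmomatic 0.39 is also listed, per the submitters' processing notes. StringTie 1.3.6 wrote the deposited files, per the file headers. Strand and pairing are not given in the sources used here.

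The authors deposited coverage, FPKM and TPM for 76232 transcripts a library, 41063 annotated and 35169 assembled. Their deposited series table of log2 values matched log2(FPKM + 1) of the annotated transcripts to within 4.9e-08 and served for symbols. TPM was summed by symbol within each locus, and an assembled transcript took its locus's symbol where just one was present; 770 loci carry several. StringTie divides reads among overlapping transcripts, so single models and gene TPM can move with that division. Bases were coverage times length. Reads were estimated from a read length of 135 inferred from the values.

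Genes and transcripts with a mean of at least 0.5 TPM entered limma 3.58.1 (R 4.3.3, empirical Bayes with trend) on log2(TPM + 1). A call is a Benjamini-Hochberg adjusted p under 0.05. Permutation tests were written with numpy 2.4.6, exact or with 100000 resamples, and scipy 1.17.1 gave their ranks and adjustment. The code was tested on simulated data. Named genes were the members, their transcripts and neighbours, from each list the 2 of smallest p and the 2 of highest level, the 3 genes most like each member, and Oprm1. Members and lists were chosen with earlier results of these data known. Alternatives changed the filter, pseudocount, scaling, transcripts, covariates or libraries.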

Additional observations from a re-analysis of the deposited data

Results flagged for a closer look

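Within groups of 6, 20 of 114 values looked at lay apart from the other 5 by a gap that chance gives in about 5% of groups. Many of them fall in the same few libraries and are not independent of each other, and no cause was tested.

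For the GIRK genes, the summed TPM was 125 in saline-sired 6, against 67.8 to 86.9 in the other 5. The Kcnj9 share was 50.8% in saline-sired 2 (others 60.6% to 66.2%). Depth of the shared Kcnj9 exon was 29.8 per gigabase in saline-sired 6 (others 14.3 to 17.6). For Kcnj3, ENSRNOT00000007335 had 23.0 TPM in saline-sired 6 (others 0.12 to 3.18), MSTRG.15635.2 had 0.222 TPM there (others 4.42 to 6.77), and MSTRG.15635.5 had 0.000652 TPM in morphine-sired 6 (others listed at 0). For Kcnj9, ENSRNOT00000080638 had 3.14 TPM in morphine-sired 3 (others 1.43 to 1.99) and MSTRG.7429.1 had 1.91 TPM in saline-sired 2 (others 0.426 to 0.864).

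Among genes most like a member, Nup160 had 8.79 TPM in morphine-sired 3 and 8.58 in saline-sired 6, and Ss18l2 75.8 in morphine-sired 3 and 82.8 in saline-sired 6. Dusp4 had 9.43 TPM in morphine-sired 3, and Pkib 8.08 in morphine-sired 1. Lef1 had 28.0 TPM in morphine-sired 1 and 34.7 in saline-sired 6, and Rasd1 40.4 in saline-sired 6. Among pathway genes, Gabbr1 had 595 TPM in morphine-sired 2 (others 737 to 815), Dlg1 43.3 in morphine-sired 1 (others 45.2 to 46.2), and Gnai2 341 in saline-sired 2 (others 265 to 285).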

How the results depend on the processing

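No GIRK gene passed under any alternative run. The smallest p were 0.0632 for Kcnj3 (limma-voom), 0.58 for Kcnj5, 0.34 for Kcnj6 and 0.0836 for Kcnj9, with adjusted p of at least 0.933. Signs of the near-zero differences turned, and the cause was not tested. Kcnj3 differed by -0.22 ± 0.11 (SE) with limma-voom and -0.21 ± 0.10 by mapped bases, both farther from 0 than by TPM, by 0.35 with annotated transcripts alone, 0.11 without morphine-sired 1 and saline-sired 1 and 6, and 0.02 without library 2 of each group. Kcnj5 differed by 0.00012 with quantile normalization, 0.01 with limma-voom, 0.06 without the 3 libraries and 0.02 without library 2. Kcnj6 differed by 0.05 with serotonergic and cholinergic scores as terms and 0.03 without library 2. Leaving out each library in turn gave -0.18 to 0.10 for Kcnj3, -0.05 to 0.06 for Kcnj5, -0.10 to 0.01 for Kcnj6 and -0.0039 to 0.25 for Kcnj9. It gave 0 to 1 genes and 0 to 2 transcripts past the threshold. Without the 3 libraries 1 gene and 12 transcripts passed, and without library 2 of each group 2 transcripts. With no filter, with FPKM or with quantile normalization 0 transcripts passed. With annotated transcripts alone Kcnj3 made up 8.8% of GIRK TPM, Kcnj5 5.16% and Kcnj9 69.7%, and Kcnj3 over Kcnj6 was -1.89, against 0.61 by shared exon depth. Correlations also changed sign. Kcnj3 and Kcnj5 had r of 0.08 with annotated transcripts and 0.25 by shared exon. Kcnj3 and Kcnj6 had 0.18 in saline-sired alone, 0.14 with annotated transcripts, 0.20 without the 3 libraries, 0.23 by bases and 0.53 by shared exon. Kcnj3 and Kcnj9 had -0.57 in morphine-sired alone, -0.44 without the 3 libraries and -0.12 by bases. Kcnj6 and Kcnj9 had -0.19 without the 3 libraries, 0.91 in morphine-sired alone and 0.01 in saline-sired alone. Bases, exon depth, the thalamus and colliculus score and the correlations within a group were chosen after seeing the data. No paired analysis was possible because the labels give no replicate numbers shared between the groups. Depth limits Kcnj5 most, at 157 to 298 estimated reads.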
